A study of Mus musculus with 2 samples.

Results

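Cell cycle genes are genes whose transcripts are made when a cell copies its DNA (S phase) and divides (G2 and M phases). The members described here are 37 named mouse genes, all of which were found in both count tables of 32285 genes with 1 identifier each. They comprise 14 S genes, 22 G2/M genes and Stmn1, which encodes the microtubule regulator stathmin and was put in neither group. A barcode, the tag of 1 droplet and so usually of 1 cell, was taken as cycling when it held at least 1 UMI (a counted molecule) of Mki67 and at least 1 of Top2a. By that rule 447 of 9855 wild type barcodes and 514 of 10143 barcodes of the library labelled transgenic were cycling.

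Live CD45+ cells, the white blood cells by their shared surface protein, were sorted from the colonic lamina propria of C57BL/6 mice and profiled with 10x Genomics 5' chemistry. All mice were 8 weeks old and had drunk 2.0% dextran sulphate sodium (DSS), which injures the colon lining, for 7 days, followed by 7 days of plain water until day 14. Each group is a single library: wild type, and E4BP4 Transgenic, which the series describes as overexpression of E4BP4 (the transcription factor encoded by Nfil3) in macrophages. The labels used here do not give the promoter or the number of animals in a library, and with 1 library per group no difference could be tested. Intervals below are exact 95% intervals for counting error only.

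The libraries held 69346746 and 58884332 UMIs, with medians of 3677 and 2883 UMIs per barcode. They shared 142 barcode sequences of the 737280 possible. Deposited metadata gave cluster numbers for 6466 and 7026 of the barcodes, called deposited cells here, and the other 3389 and 3117 were left out of them. In deposited macrophage-like cells Nfil3 stood at 84.4 CPM (the gene's UMIs scaled to a common total) in wild type and 73.8 CPM in the library labelled transgenic (ratio 0.874, 0.724 to 1.06). Over all barcodes Nfil3 stood at 79.7 and 45.1 CPM (ratio 0.566, 0.540 to 0.593). The Nfil3 count thus did not go with the label, and the sources used here do not say whether the transgene's transcript would be counted.

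In a dividing cell, cyclins bind and switch on cyclin-dependent kinases, which drive the cell through S phase, G2 and mitosis. E2F factors switch on genes for DNA copying late in G1, and the MuvB complex with FoxM1 switches on genes for chromosome separation in G2. The E2F motif and the pair of elements called CHR (cell cycle genes homology region) and CCAAT box are the textbook DNA sites of these programs. In the gut wall, cells known to divide include germinal centre B cells of lymphoid follicles, plasmablasts, dendritic cell precursors, activated T cells and, outside the white blood cells, the crypt epithelium. Mature neutrophils do not divide, while their precursors can.

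RefSeq promoter windows (GRCm38.p6) were matched for 30 of the 37 members. The 250 bases before each start site were searched on both strands for CHR letters (TTTGAA or TTCGAA), the CCAAT box (CCAAT) and E2F letters (TTTCCCGC, TTTGGCGC, TTTCGCGC or TTTGCCGC), and a window could hold several. At least 1 CHR match lay upstream of 8 of 18 G2/M genes and 2 of 12 S genes, beside 19.6% of all 27025 genes with a window. The CCAAT box was in 16 of 18 G2/M genes and 10 of 12 S genes, beside 37.5% of all genes. E2F letters were in 4 of 12 S genes and 1 of 18 G2/M genes, beside 2.16% of all genes. These 6 stretches are shown because their genes carry the counts below, and because they differ in these letters. Each is the 150 bases before the start site, 5′ to 3′ in the gene's direction, with matches in capitals.

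Mki67 (chr7:135716380-135716529, minus strand): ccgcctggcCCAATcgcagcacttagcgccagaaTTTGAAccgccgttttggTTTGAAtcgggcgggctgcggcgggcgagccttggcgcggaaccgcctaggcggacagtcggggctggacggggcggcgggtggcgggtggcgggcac
Top2a (chr11:99024190-99024339, minus strand): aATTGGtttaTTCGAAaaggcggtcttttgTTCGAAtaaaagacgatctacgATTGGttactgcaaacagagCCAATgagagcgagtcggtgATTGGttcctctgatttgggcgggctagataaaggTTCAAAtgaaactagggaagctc
Ccnb2 (chr9:70421555-70421704, minus strand): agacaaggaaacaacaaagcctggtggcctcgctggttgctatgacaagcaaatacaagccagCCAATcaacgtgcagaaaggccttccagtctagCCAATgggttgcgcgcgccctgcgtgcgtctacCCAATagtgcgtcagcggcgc
Mcm3 (chr1:20820313-20820462, minus strand): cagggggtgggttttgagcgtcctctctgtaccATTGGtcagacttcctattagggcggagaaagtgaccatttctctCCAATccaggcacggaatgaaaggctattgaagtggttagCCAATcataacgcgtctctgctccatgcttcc
Mcm5 (chr8:75109359-75109508, plus strand): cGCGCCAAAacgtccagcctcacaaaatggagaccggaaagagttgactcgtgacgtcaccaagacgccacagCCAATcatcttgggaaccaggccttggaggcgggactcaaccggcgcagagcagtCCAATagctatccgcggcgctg
Mcm6 (chr1:128359706-128359855, minus strand): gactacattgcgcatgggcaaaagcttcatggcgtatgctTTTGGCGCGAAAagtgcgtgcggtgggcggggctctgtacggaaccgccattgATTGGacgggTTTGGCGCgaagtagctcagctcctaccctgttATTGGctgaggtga

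Mki67 and Top2a, which mark the cycling barcodes, show CHR and CCAAT letters together. Mcm5 and Mcm6, subunits of the helicase that opens DNA for copying, show E2F letters, and Mcm3 of the same helicase shows only CCAAT boxes. In Ccnb2, which encodes cyclin B2 of mitosis, the shown stretch holds CCAAT boxes only. A match is a run of letters and not a measured binding site.

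Mki67 encodes Ki-67, a coat protein of mitotic chromosomes (chromosome 7, 135689784 to 135716361, minus strand), and Top2a encodes topoisomerase II alpha, which untangles copied DNA (chromosome 11, 98992943 to 99024189, minus strand). Mki67 had 4734 UMIs in wild type and 4648 in the library labelled transgenic, and Top2a had 3921 and 3785. The cycling share of all barcodes was 4.54% (4.13 to 4.97) in wild type and 5.07% (4.65 to 5.51) in the library labelled transgenic (ratio 1.12, 0.982 to 1.27). The interval of the ratio includes 1. With each barcode thinned to 2000 UMIs, and 2369 and 3204 shallower ones set aside, the shares were 2.06% and 2.84% (ratio 1.38, 1.11 to 1.72), and that interval does not include 1. A further 659 and 641 barcodes held Mki67 without Top2a, and 429 and 437 held Top2a without Mki67.

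Most cycling barcodes were absent from the deposited metadata. Of the cycling barcodes 87.5% in wild type and 82.7% in the library labelled transgenic were left out, against 31.9% and 28.0% of the other barcodes. Deposited cells have more than 200 but fewer than 2200 genes, and less than 5% of their UMIs from mitochondria or from any immunoglobulin class. By these limits 196 and 235 cycling barcodes fell out for gene number alone, 176 and 149 for immunoglobulin, and 19 and 41 for mitochondrial share. Among those out for immunoglobulin, 157 and 123 also held 2200 genes or more.

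The gene limit lies well below the usual cycling barcode. Cycling barcodes had a median of 3335 genes in wild type and 3033.5 in the library labelled transgenic, and other barcodes 1271 and 1162. At 2200 genes or more were 81.2% and 70.8% of cycling barcodes and 22.1% and 16.02% of the others. The median depth was 16974 and 12007.5 UMIs for cycling barcodes against 3494 and 2766 for the others. A deeper barcode has more chances to show a UMI of both genes, so depth moves with the definition of cycling. Of the barcodes that were cycling after thinning, 81.2% and 77.2% were still outside the metadata.

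**Figure D1:**
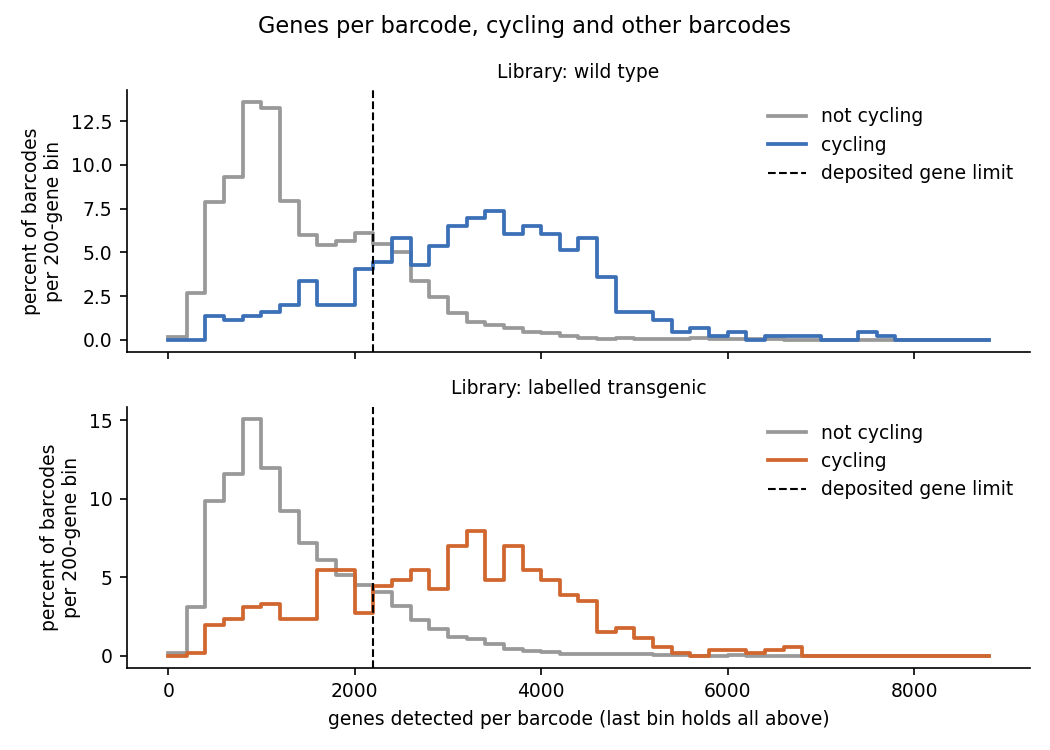
Genes detected per barcode (x axis, bins of 200 genes) against the percent of cycling (coloured) or other (grey) barcodes in each bin (y axis), with 1 panel per library. The dashed line is the deposited limit of 2200 genes, and 81.2% and 70.8% of cycling barcodes lie at or above it.

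Among deposited cells 56 of 6466 (0.866%, 0.655 to 1.12) were cycling in wild type and 89 of 7026 (1.27%, 1.02 to 1.56) in the library labelled transgenic (ratio 1.46, 1.04 to 2.08). Among left-out barcodes 391 of 3389 (11.5%) and 425 of 3117 (13.6%) were cycling (ratio 1.18, 1.03 to 1.36). At full depth both ratios lie above 1 by more than counting error, and the spread between animals is not known. With barcodes thinned to the same depth, the ratio in deposited cells was 1.56 (0.956 to 2.58), and that interval includes 1. In left-out barcodes the thinned ratio was 1.48 (1.16 to 1.89). With the classes of deposited cells weighted to the same makeup in both libraries, the ratio in deposited cells was 1.09, from 1.01% and 1.11%. The part of makeup in the difference was not tested further.

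The other members were found mainly in the same barcodes. Cycling barcodes held 13.05% and 13.7% of all UMIs, but a median of 85.8% and 84.7% of the UMIs of each of the 20 G2/M genes besides Mki67 and Top2a, and 56.3% and 57.5% of each S gene's. Of the G2/M genes, Ube2c, the E2 enzyme of the anaphase-promoting complex, had 90.1% and 88.5% of its UMIs there. Ccna2, cyclin A2, had 89.0% and 88.6%. Nusap1, a spindle protein, had 89.2% and 88.3%. At the low end was Cenpa, the histone H3 variant of centromeres, with 41.7% and 45.8%. No other G2/M gene was below 69.0%, the wild type share of the checkpoint kinase Bub1b.

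The S genes spread over a wide range of such shares. Pclaf, which encodes a protein that binds PCNA, had 89.0% and 90.3% of its UMIs in cycling barcodes. Rrm2, the regulated subunit of ribonucleotide reductase, had 89.96% and 88.4%, while Rrm1, its partner subunit, had 59.0% and 58.7%. The 6 helicase subunits Mcm2 to Mcm7 ranged from 38.0% (Mcm4) to 60.4% (Mcm5) in wild type and from 35.9% to 57.0% in the library labelled transgenic, with the same genes at the ends. Pcna, the sliding clamp of DNA polymerase, had 39.4% and 38.7%. The remaining S genes were Tk1 (71.4% and 72.3%), Uhrf1 (71.3% and 72.6%), Tyms (67.9% and 65.8%) and Gins2 (53.6% and 58.0%). Stmn1 had 74.4% and 77.9%. In each library, the share for every gene was above the share of all UMIs. For Mki67 and Top2a this follows in part from the rule, which picks barcodes that hold them.

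**Figure D2:**
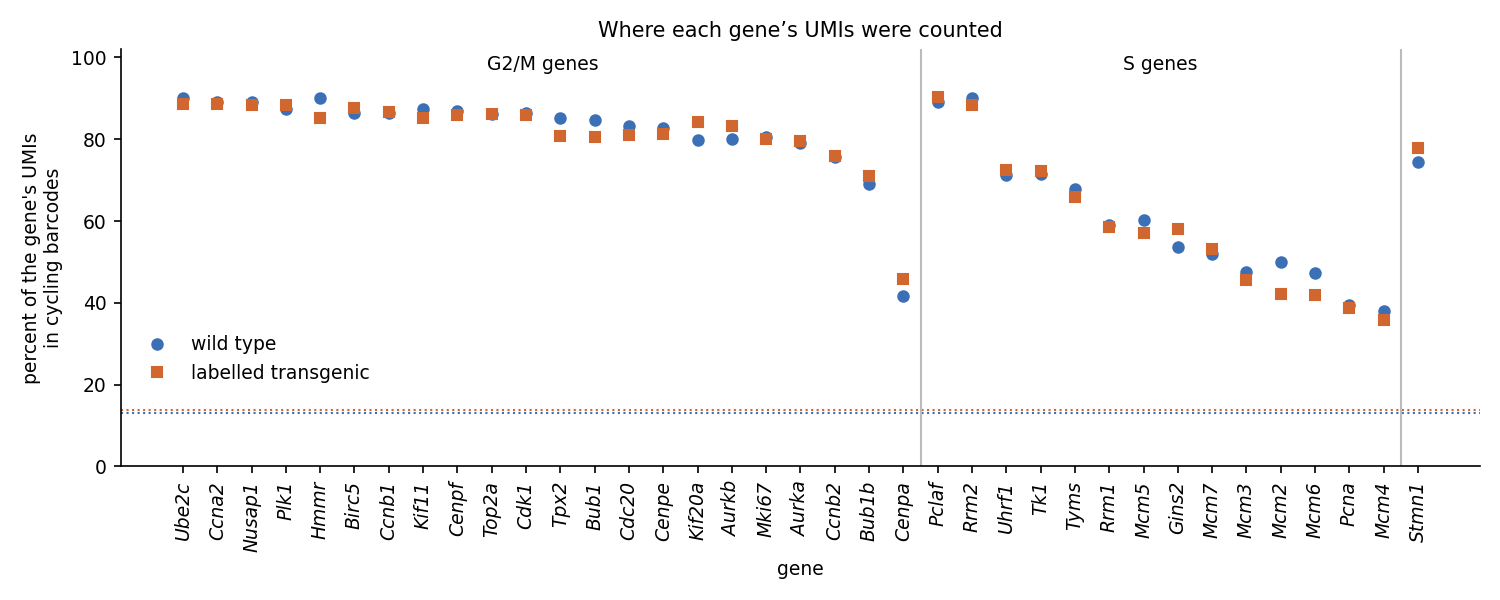
Percent of each gene's UMIs that were counted in cycling barcodes (y axis) for the 37 genes (x axis, grouped as G2/M, S and Stmn1), circles for wild type and squares for the library labelled transgenic. The dotted lines give the share of all UMIs held by cycling barcodes (13.05% and 13.7%), and most G2/M genes lie near 85% while the Mcm genes and Pcna lie lower. Mki67 and Top2a define the cycling barcodes, so their shares are raised by the rule.

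Single genes were seen in part of the cycling barcodes. At full depth Birc5, the chromosomal passenger survivin, was detected in 69.8% and 65.2% of cycling barcodes and in 2.25% of the other wild type barcodes. Pcna was detected in 68.5% and 65.0% of cycling barcodes and in 17.5% and 18.1% of the others. After thinning to 2000 UMIs, Birc5 was detected in 46.1% and 45.2% of cycling barcodes and 2.17% and 2.03% of the others, and Pcna in 24.7% and 28.9% against 8.05% and 11.1%. Besides Mki67 and Top2a, at least 3 of the other 20 G2/M genes were detected in 81.7% and 78.4% of cycling barcodes and in 1.39% and 1.49% of the others. At least 3 S genes were detected in 81.2% and 78.8% of cycling barcodes and in 6.65% and 6.44% of the others. Barcodes with at least 3 S genes and no UMI of any G2/M gene numbered 258 and 253.

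To see which cells cycled, deposited cells kept their cluster and left-out barcodes were given the most likely of 12 classes, without the use of cell cycle or immunoglobulin genes. This returned the deposited cluster for 83.4% of 6763 held-out deposited cells. Classes are named from markers, and 4 deposited clusters stayed unnamed: 2 lymphoid clusters, numbered 2 and 4, and clusters 5 and 7, which have few UMIs per cell. The classes plasma-like and epithelial-like occur only among the left-out barcodes, because these profiles were built there. Deposited cells are not free of such markers. At least 2-fold above the other clusters, cluster 7 had 10 epithelial markers, beside 7 B, 6 erythroid, 5 plasma and 5 mast markers. Cluster 5 had 8 mast markers, beside 5 dendritic, 4 monocyte and 3 germinal centre B markers.

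Plasma-like barcodes, antibody-secreting cells by their markers, made up the most cycling barcodes, with 162 of 447 in wild type and 126 of 514 in the library labelled transgenic. Their cycling share was 15.6% (13.5 to 18.0) and 14.7% (12.4 to 17.2). Sdc1, the plasma cell surface protein syndecan-1, was found in 93.2% and 96.0% of the cycling ones, against 7.35% and 2.44% of cycling B-like barcodes. Sdc1 is among the plasma markers used to build this class, so its presence there follows in part from the rule. Jchain, of secreted antibody, was in 100% of cycling plasma-like barcodes but also in 85.3% and 93.1% of cycling dendritic-like barcodes, so it does not set the class apart. Of the 10 plasma markers, at least 3 were also found in 91.2% and 89.0% of cycling B-like barcodes. For dendritic-like ones this was 64.7% and 62.1%, and for epithelial-like ones 90% and 65.2%. The median number detected was 9.5 and 9 in cycling plasma-like barcodes and 4 in cycling B-like ones in both libraries. At least 3 B markers were found in 48.1% and 56.3% of cycling plasma-like barcodes.

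B-like barcodes gave 68 and 82 cycling barcodes, and nearly all were left-out ones. In deposited B-like cells 8 of 2410 (0.332%) and 11 of 2236 (0.492%) were cycling, and in left-out B-like barcodes 60 of 123 (48.8%) and 71 of 129 (55.0%). Germinal centre markers went with cycling. Mef2b, a transcription factor of germinal centre B cells, was found in 89.7% and 85.4% of cycling B-like barcodes and in 5.27% and 5.04% of the others. Left-out B-like barcodes, which hold most cycling ones, had median depths of 10685 and 9193 UMIs, and deposited B-like cells 2445 and 2235. Mef2b was not compared at equal depth. Left-out B-like barcodes with at least 3 germinal centre markers were cycling in 52 of 72 cases (72.2%) and 60 of 78 cases (76.9%), and those with fewer in 8 of 51 (15.7%) and 11 of 51 (21.6%). Their median depths were 11484 and 10721 UMIs with at least 3 markers and 9485 and 7544 with fewer.

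Dendritic-like barcodes gave 34 and 87 cycling barcodes. All 34 and 83 of the 87 were left out of the metadata. In left-out dendritic-like barcodes the cycling share was 11.3% (7.92 to 15.4) and 17.7% (14.4 to 21.5) (ratio 1.58, 1.05 to 2.42). Over all dendritic-like barcodes it was 7.83% and 11.6% (ratio 1.48, 0.986 to 2.27). With barcodes thinned to the same depth, the ratio over all dendritic-like barcodes was 1.89 (0.946 to 4.12). Both of these wider intervals include 1. Flt3, the growth factor receptor of dendritic cell precursors, was found in 88.2% and 77.0% of the 34 and 87 cycling ones. Clec9a, of type 1 conventional dendritic cells, was found in 52.9% and 60.9%. Siglech, a plasmacytoid dendritic cell marker among the leading genes of the deposited cluster, was found in 5.88% and 0% of the cycling ones and 13.8% and 15.7% of the others. The cycling share in deposited dendritic-like cells was 0 of 132 and 4 of 282, and for 0 of 132 the floor of 3 counts is 2.27% and the exact upper limit 2.76%.

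Macrophage-like barcodes gave 41 and 46 cycling barcodes, a share of 3.99% (2.88 to 5.38) and 3.01% (2.22 to 4.0) (ratio 0.755, 0.485 to 1.18). Their median depth was 4857 UMIs in wild type and 3896.5 in the library labelled transgenic. With barcodes thinned to the same depth, the shares were 1.74% and 1.81% (ratio 1.04, 0.502 to 2.20). C1qa, a complement gene of tissue macrophages, was found in 97.6% and 89.1% of the 41 and 46 cycling ones. At least 3 markers of each of 2 lineages (macrophage, T, B or epithelial) were found in 48.8% and 63.04% of cycling macrophage-like barcodes and 37.3% and 42.4% of the others. The highest 8% of doublet scores held 22.0% and 36.96% of the cycling ones. Whether droplets with a pair of cells account for part of these cycling barcodes was not tested.

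In lymphoid cluster 4, where Cd3e of the T cell receptor complex was found in 81.1% and 97.7% of cycling barcodes, 37 of 537 (6.89%) and 43 of 843 (5.10%) were cycling. Lymphoid cluster 2 had 2.90% and 2.69%. Epithelial-like barcodes, which are outside the CD45+ sort by type and held Ptprc (the CD45 gene) in 10% and 13.04% of the cycling ones, were cycling in 30 of 248 (12.1%) and 23 of 259 (8.88%). Monocyte-like barcodes were low at 0.825% and 0.971%, although their median depth in wild type was 7353 UMIs.

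Neutrophil-like barcodes had the lowest cycling share in both libraries. Camp and Ngp, granule genes of developing neutrophils, are among their leading genes, so the class need not be mature cells alone. They held 1 cycling barcode of 683 (0.146%) in wild type, at a median depth of 3704 UMIs, and 0 of 174 in the library labelled transgenic, at 1757 UMIs, where the floor of 3 counts is 1.72% and the exact upper limit 2.10%. Its interval in wild type, 0.00371 to 0.813, overlaps those of deposited wild type B-like, monocyte-like, dendritic-like and fibroblast-like cells and of clusters 5 and 7. These classes differ in depth, and overlap of intervals does not show that their shares are alike. Summed over the 14 S genes, neutrophil-like barcodes had 51.5 and 87.7 CPM, and B-like barcodes had 795 and 835 CPM.

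**Figure D3:**
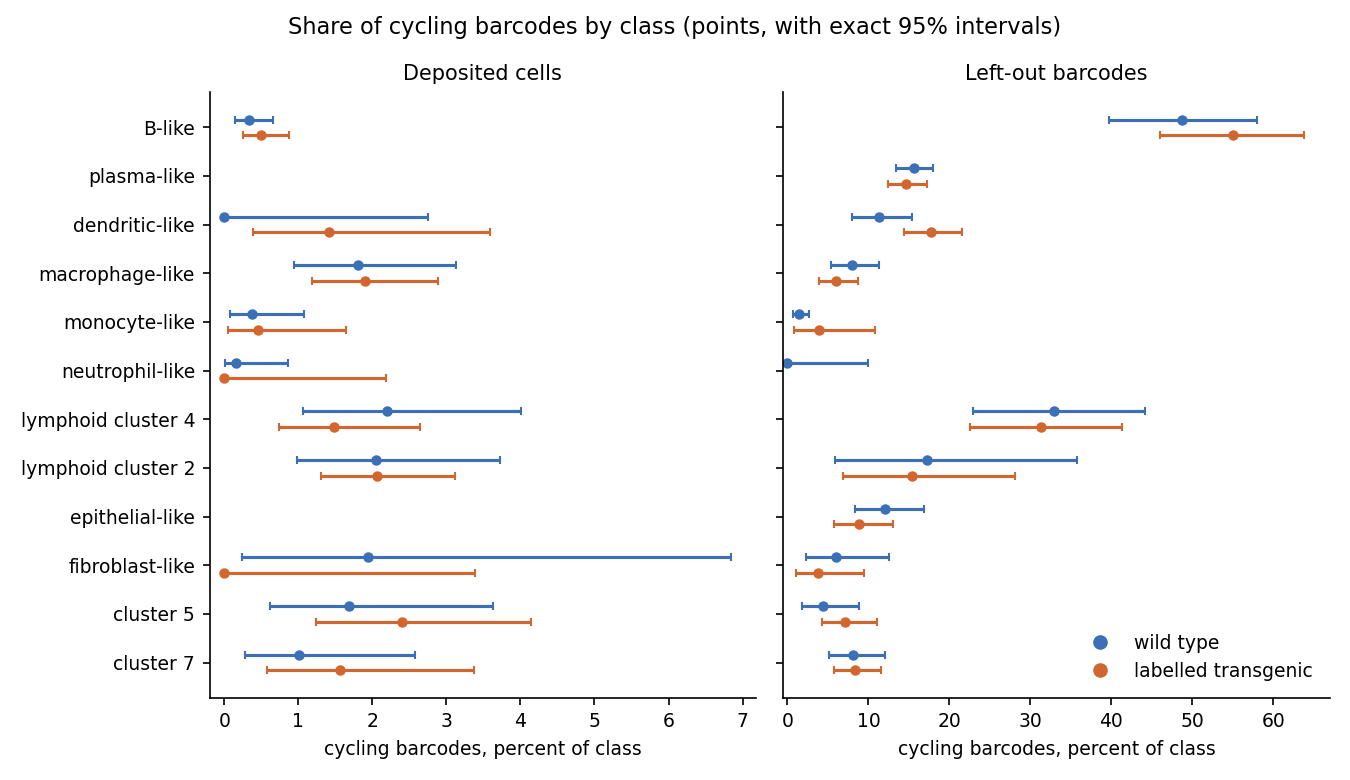
Percent of each class that was cycling (x axis) in deposited cells (left) and left-out barcodes (right), with 1 point per library and exact 95% intervals. Left-out B-like barcodes reach 48.8% and 55.0% while deposited B-like cells stay at 0.332% and 0.492%, and the x axes of the panels differ.

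S and G2/M genes differed in weight between classes. Over all cycling barcodes the UMIs of S genes divided by those of the 20 G2/M genes (Mki67 and Top2a set aside) gave 0.819 in wild type and 0.791 in the library labelled transgenic (ratio 0.965, 0.937 to 0.994). Within single cycling barcodes the S share of these UMIs had a median of 46.9% and 49.5%, with quartiles of 22.7% and 77.7% in wild type and 21.1% and 75.9% in the other. Single barcodes thus ranged from mostly G2/M to mostly S in both libraries.

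By class, S over G2/M in cycling barcodes was 1.17 and 1.09 in B-like, 0.688 and 0.733 in plasma-like and 0.524 and 0.399 in epithelial-like barcodes. B-like barcodes lay above plasma-like and epithelial-like ones in both libraries. In dendritic-like barcodes it was 0.913 and 0.679 (ratio between libraries 0.744, 0.688 to 0.806), and in macrophage-like barcodes 0.872 and 0.610 (ratio 0.699, 0.608 to 0.804). In lymphoid cluster 4 it was 1.24 and 0.958 (ratio 0.773, 0.693 to 0.862). The ratio was also below 1 in B-like (0.927, 0.870 to 0.987), epithelial-like (0.761, 0.661 to 0.876) and cluster 7 barcodes (0.636, 0.5003 to 0.808), and slightly above it in plasma-like ones (1.06, 1.01 to 1.12). It was further above 1 in the remaining classes with S UMIs, at 1.77 (1.39 to 2.26) in lymphoid cluster 2, 2.33 (1.66 to 3.26) in cluster 5, 2.26 (1.65 to 3.10) in fibroblast-like and 1.55 (1.04 to 2.31) in monocyte-like barcodes, each on 30 or fewer cycling barcodes per library. Per barcode, the median S share was 62.9% and 41.7% in dendritic-like barcodes but 50% in both libraries in macrophage-like ones, where 21 of 41 and 22 of 46 held more S than G2/M UMIs. These intervals count UMIs, and UMIs of a barcode are not independent, so the spread over barcodes is not in them.

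**Figure D4:**
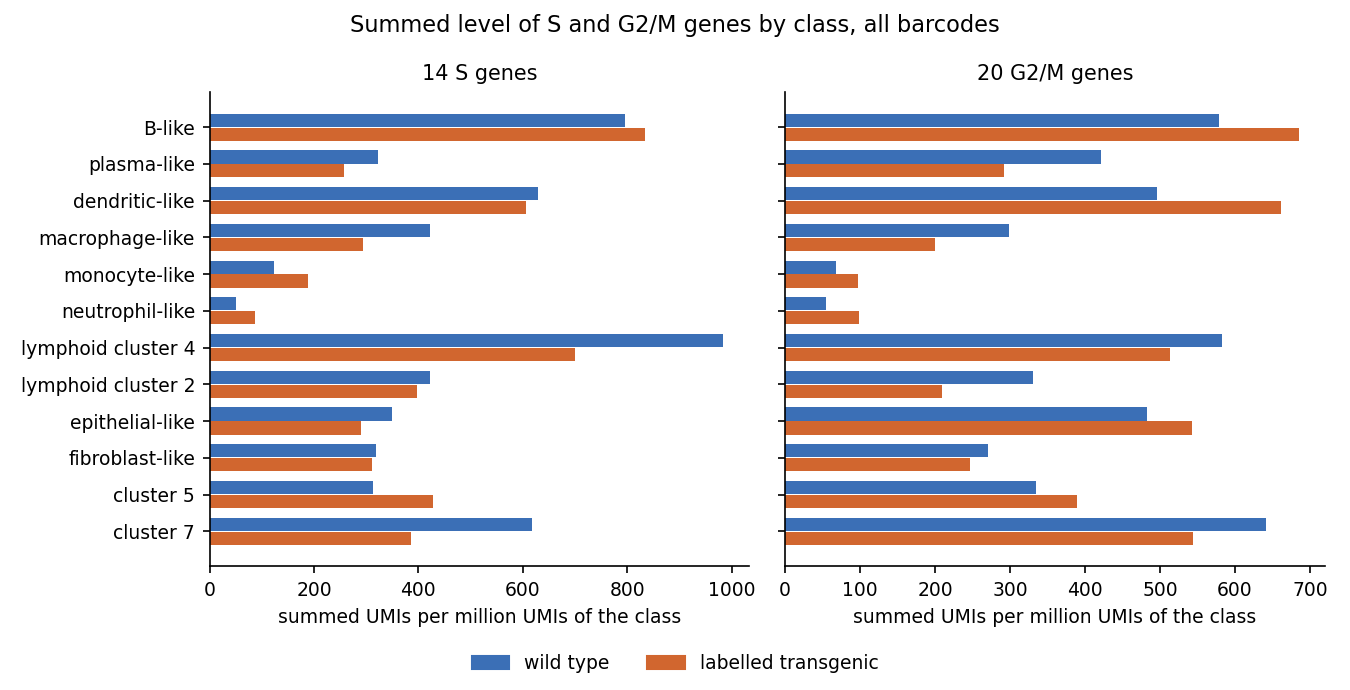
Summed UMIs of the 14 S genes (left) and of 20 G2/M genes (right) as CPM of a class (x axis), over all barcodes, with 1 bar per class and library. B-like barcodes and lymphoid cluster 4 are high in S genes, and monocyte-like and neutrophil-like barcodes are low in both groups.

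Between the libraries the members as a whole were close. A gene counted as past 1.5-fold when its CPM ratio (library labelled transgenic over wild type) was at least 1.5 or at most its inverse, with at least 20 UMIs over both libraries. Over all barcodes 0 of 37 members were past it in either direction, where 11.4% of 16190 genes were at least 1.5-fold higher and 7.52% at least 1.5-fold lower. The median log2 ratio was 0.10 for the members and 0.09 for all genes tested. The member with the highest ratio was Stmn1, at 93.2 and 124 CPM (ratio 1.33, 1.28 to 1.37). The lowest was Rrm2, at 32.0 and 23.5 CPM (ratio 0.734, 0.686 to 0.785). Mki67 stood at 68.3 and 78.9 CPM and Top2a at 56.5 and 64.3 CPM, ratios of 1.16 and 1.14.

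Other genes of the pathway came from a fixed list of 39. Of the G1 cyclins and kinases 2 of 8 were past 1.5-fold, both higher in the library labelled transgenic. Ccnd1, cyclin D1, stood at 27.9 and 57.0 CPM (ratio 2.04, 1.93 to 2.16), and Ccnd2, cyclin D2, at 85.1 and 136 CPM (ratio 1.60, 1.55 to 1.65). Of the E2F and MuvB-FoxM1 factors 1 of 10 was past it, the repressor E2f7, at 1.17 and 1.92 CPM. Of the inhibitors 1 of 12 was past it, Cdkn1a, which encodes the kinase inhibitor p21, at 186 and 114 CPM (ratio 0.612, 0.594 to 0.630). None of the 9 licensing and checkpoint genes was past it. In cycling barcodes Cdkn1a stood at 59.7 and 55.1 CPM (ratio 0.923, 0.813 to 1.05).

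In deposited cells 6 of 37 members were at least 1.5-fold higher in the library labelled transgenic, where 13.6% of 14199 genes were, and 0 were lower, where 7.82% were. All 6 were G2/M genes. Mki67 stood at 23.2 and 39.7 CPM (ratio 1.71, 1.53 to 1.92), and Hmmr, a spindle-associated hyaluronan receptor, at 1.76 and 3.46 CPM (ratio 1.97, 1.30 to 3.03). The others were the kinesins Cenpe (1.59) and Kif11 (1.57), the spindle factor Tpx2 (1.64) and the checkpoint kinase Bub1 (1.65). Plk1, a mitotic kinase, went the other way at 3.56 and 2.60 CPM. The share of members is near the share of all genes. In left-out barcodes 0 of 37 members were past 1.5-fold in either direction, where 9.43% of genes were higher and 7.78% lower.

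Within cycling barcodes the level of the members was also close between libraries. None of the 37 was past 1.5-fold, where 11.9% of 12339 genes were higher and 7.4% lower. Mki67 and Top2a are in every cycling barcode by the rule, so their closeness is partly set by it. Rrm2 was nearest to the limit, at 221 and 151 CPM (ratio 0.685, 0.637 to 0.736). Stmn1 stood at 531 and 701 CPM (ratio 1.32, 1.27 to 1.37).

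In macrophage-like barcodes, the cells meant to carry the transgene, 17 of 37 members were at least 1.5-fold lower in the library labelled transgenic, where 6.9% of 11624 genes were, and 0 were higher, where 9.44% were. The summed level of the members was 951 CPM in wild type and 642 CPM in the other (ratio 0.675, 0.650 to 0.701). That interval counts UMIs, which are not independent within a barcode, and 5 barcodes held 17.7% and 15.2% of them. Without the 5 highest barcodes of each library 21 members were lower, where 6.67% of all genes were. As a share of barcodes, cycling gave a ratio of 0.755 (0.485 to 1.18), or 1.04 (0.502 to 2.20) when thinned. With all barcodes of the class, 7 of 14 S genes were lower. Tk1, thymidine kinase, stood at 28.0 and 9.81 CPM (ratio 0.350, 0.263 to 0.460), Pclaf at 56.5 and 25.1 CPM (ratio 0.444, 0.371 to 0.530), and Gins2, of the replication helicase complex, at 15.4 and 6.93 CPM. Of the G2/M genes 9 of 22 were lower. Ccnb1, cyclin B1, stood at 7.17 and 3.14 CPM on 46 and 24 UMIs (ratio 0.438, 0.256 to 0.732), and Birc5 at 34.4 and 18.4 CPM (ratio 0.535, 0.430 to 0.664). Stmn1 stood at 134 and 73.6 CPM.

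Some members did not share that difference. Pcna stood at 83.5 and 83.9 CPM (ratio 1.01, 0.895 to 1.13), and Mcm6 at 30.5 and 31.1 CPM (ratio 1.02, 0.840 to 1.24). Ccnd2 was at least 1.5-fold higher, at 79.9 and 128 CPM. The left-out barcodes made up 35.3% of macrophage-like barcodes in wild type and 27.5% in the library labelled transgenic, and held 77.6% and 57.8% of the member UMIs. In deposited macrophage-like cells alone 2 members were lower and 3 higher, of 34 with enough UMIs, where 8.52% of all genes were lower and 8.66% higher. In left-out ones alone 25 were lower, where 7.64% of all genes were. Without the highest 8% of doublet scores 30 were lower, where 7.14% were. That step removed 9 of 41 cycling barcodes in wild type and 17 of 46 in the library labelled transgenic, so it was uneven between libraries. The part of the left-out share in this difference was not tested beyond these counts.

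In cycling macrophage-like barcodes the summed S genes differed more between libraries than the G2/M genes, while the median S share per barcode was 50% in both. Of the S genes 8 of 14 were at least 1.5-fold lower, where 16.7% of 5329 genes were, and of the G2/M genes 1 of 22 was lower and 1 higher, where 15.2% were higher. Their sum of S genes was 1943 and 1273 CPM (ratio 0.655, 0.587 to 0.730), and that of the 20 G2/M genes 2229 and 2087 CPM (ratio 0.936, 0.855 to 1.02). These are 41 and 46 barcodes, with 994 and 505 S UMIs.

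In dendritic-like barcodes the difference ran the other way for G2/M genes. There 6 of 37 members were at least 1.5-fold higher in the library labelled transgenic, where 9.02% of 10850 genes were, and 0 were lower, where 6.13% were. The 20 G2/M genes summed to 496 and 661 CPM (ratio 1.33, 1.27 to 1.40), and 18 of the 20 had a ratio above 1. This interval also counts UMIs, not barcodes. Ube2c stood at 82.8 and 130 CPM (ratio 1.57, 1.39 to 1.78), Cdc20, an activator of the anaphase-promoting complex, at 10.1 and 17.3 CPM, and Cenpf, of the kinetochore, at 25.5 and 38.9 CPM. Ccnb2 and Kif11 were also past 1.5-fold. The S genes summed to 630 and 607 CPM (ratio 0.963, 0.919 to 1.01). Only Uhrf1 among them, which helps copy DNA methylation, was past it, at 13.2 and 21.1 CPM. In wild type 5 barcodes held 20.6% of the member UMIs of the class, and without the 5 highest barcodes of each library 17 members were at least 1.5-fold higher, where 9.73% of all genes were. In deposited dendritic-like cells alone the balance turned, with 1 member higher and 3 lower of 12 with enough UMIs, where 11.5% of all genes were higher and 11.4% lower, and the median log2 ratio of the members was -0.13.

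Cycling dendritic-like barcodes had 6 members at least 1.5-fold lower, where 12.2% of 7260 genes were, and 1 higher, where 12.1% were. The lower ones were Aurka, Rrm2, Mcm2, Mcm3, Mcm4 and Mcm6, and Mcm6 stood at 214 and 110 CPM (ratio 0.514, 0.407 to 0.651). Cycling plasma-like barcodes had 6 lower, where 8% of 9266 genes were, and 0 higher, where 12.8% were. These were Cdk1, Plk1, Nusap1, Hmmr, Cdc20 and Rrm2, and Rrm2 stood at 231 and 130 CPM (ratio 0.561, 0.504 to 0.623). In cycling B-like barcodes 1 member was lower, where 9.09% of 7181 genes were, and 0 higher, where 9.36% were. That member was Bub1, on 54 and 34 UMIs. The sum of all members there, Mki67 and Top2a included, was 10280 and 10292 CPM (ratio 1.00, 0.974 to 1.03).

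**Figure D5:**
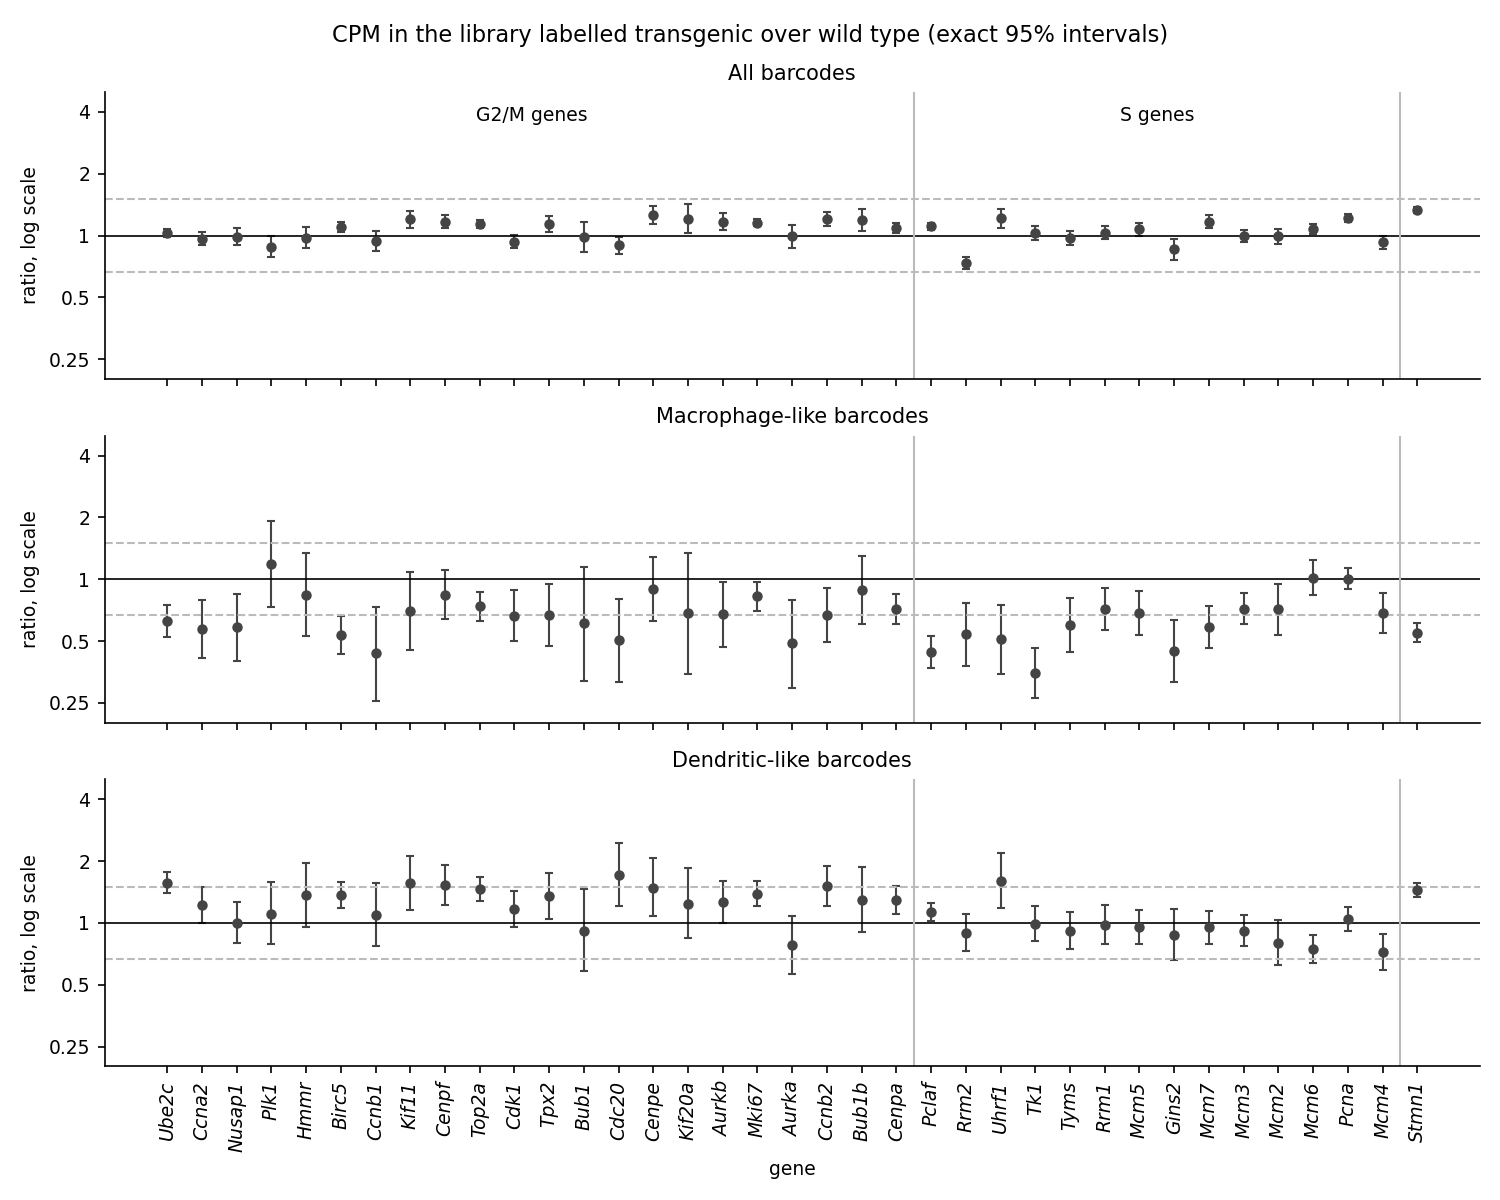
CPM in the library labelled transgenic over wild type (y axis, log scale, with exact 95% intervals) for the 37 genes (x axis) in all barcodes, macrophage-like barcodes and dendritic-like barcodes. Dashed lines mark 1.5-fold in each direction. In all barcodes every point lies between them, in macrophage-like barcodes 17 lie below, and in dendritic-like barcodes 6 lie above.

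Counts of some members may include reads of neighbours, because 9 of the 37 genes overlap a protein-coding gene on the opposite strand in the GENCODE vM21 annotation (Ccna2, Ube2c, Nusap1, Kif20a, Cdc20, Pclaf, Tk1, Mcm7 and Gins2). Whether the counting used strand is not given in the sources used here.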

How the data were processed

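Each count table holds deposited UMI counts, which per the file headers are counts of molecules per gene and barcode, with no normalization. A deposited metadata table lists for each cell, per the file headers, the percent of UMIs from mitochondrial and immunoglobulin genes, gene and UMI numbers and cluster numbers. Cell Ranger 5.0.0, Seurat 4.0 and the mm10 build appear, per the submitters' processing notes, without a role for each. Counts by the tables differed from the metadata by at most 17 genes and 58 UMIs per cell. Of the barcodes within the limits 0 were left out, and 6 per library were kept outside them.

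The members and lists were chosen with earlier results of these data known. All 37 members are named by rule, in S and G2/M groups. CPM is summed UMIs over the total, and shares, levels and ratios carry exact Clopper-Pearson, Poisson and conditional binomial intervals (95%). A share of 0 is read against a floor of 3 counts. The fold rule and interval were tested on simulated data. With 1 library per group no p-value is given. Classes of left-out barcodes came from a multinomial likelihood (pseudocount 0.1 CPM), with plasma profiles from barcodes of at least 20% immunoglobulin and 5 markers and epithelial profiles from at least 6 markers. Deposited clusters were named from marker lists, with at least 3 markers needed among genes 2-fold above the other clusters. Scrublet's automatic calls marked 0 and 2 barcodes and did not work, so no doublets were removed, and the 8% with the highest scores were left out in an alternative. Alternatives also covered the cycling definition, depth, makeup, scaling, count minimum and fold. All alternatives for the macrophage-like and dendritic-like counts and for the cycling share of left-out dendritic-like barcodes, and the leave-out of mixed-marker barcodes everywhere, were chosen after seeing the data. Tools were Python 3.11.15, numpy 2.4.6, scipy 1.17.1, pandas 2.3.3, scanpy 1.11.5 and matplotlib 3.10.9.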

Additional observations from a re-analysis of the deposited data

Results flagged for a closer look

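The members' summed level differed between libraries in opposite directions in macrophage-like and dendritic-like barcodes, beyond the counting error of UMIs. No other classes were compared for this flag. In macrophage-like barcodes the library labelled transgenic stood at 0.675 of the wild type level for all 37 members, and in dendritic-like barcodes at 1.20. For the 20 G2/M genes without Mki67 and Top2a the ratios were 0.668 and 1.33. The difference between the classes was not tested, because each group has 1 library. In deposited macrophage-like cells alone, 2 of 34 members were at least 1.5-fold lower and 3 higher, where 8.52% and 8.66% of all genes were. In deposited dendritic-like cells 3 of 12 were lower and 1 higher, where 11.4% and 11.5% were. The median log2 ratio of the members was -0.23 and -0.13 in these cells. UMIs of a barcode are not independent, so the spread over barcodes is not in the counting error.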

How the results depend on the processing

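No paired analysis was possible because each group has 1 library. Of 72 alternative values for the main comparisons, 54 stayed within the counting interval or within 1.5 times the count. Thinned to 2000 UMIs, the cycling ratio over all barcodes was 1.38, and 81.2% and 77.2% of cycling barcodes lay outside the metadata. With either gene in place of both, 65.0% and 60.0% lay outside, and with 2 UMIs of each, 93.3% and 86.3%, while the ratio in deposited cells became 2.19. With at least 3 other G2/M genes as the definition, the ratio of S over G2/M was 0.935. In deposited cells 3 members were past 1.5-fold under median-of-ratios scaling and 3 under the mean of per-barcode CPM (each 2 higher and 1 lower, against 6 higher and 0 lower), and 0 were past 2-fold. Median-of-ratios scaling moved the median of all genes there by 0.15 on the log2 scale. In macrophage-like barcodes 2 members were lower and 3 higher in deposited cells only (all genes 8.52% and 8.66%), 30 lower without the top doublet scores (7.14%) and 5 lower at 2-fold (2.49%). The doublet step removed 9 of 41 cycling macrophage-like barcodes in wild type and 17 of 46 in the other library. In dendritic-like barcodes the balance turned in deposited cells only, with 1 higher and 3 lower of 12 with enough UMIs (11.5% and 11.4%), and 0 were higher at 2-fold (3.32%) and 17 without the top 5 barcodes (9.73%). The cause of these shifts was not tested. Over all barcodes 0 members were past 1.5-fold under each of the 9 alternatives run. Clusters 5 and 7 have few UMIs per barcode, which limits the detection of cycling there.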
